A study of Homo sapiens with 6 samples.

Results

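The genes described here are 10 regulators and markers of the epithelial to mesenchymal transition (EMT): the transcription factors SNAI1, SNAI2, TWIST1, TWIST2, ZEB1 and ZEB2, the intermediate filament gene VIM and the cadherin genes CDH1, CDH2 and CDH11. They were chosen by name, with earlier results of these data known. All 13 probes that the platform annotation assigns to them were taken, 10 genes of the 20046 named on the array. SK-Hep1 is an established human line that the labels describe as hepatic adenocarcinoma cells. Cells were transfected with a control siRNA (siLuc) or with siRNA against YAP1 and TAZ (siYAP&TAZ), 3 samples each, and profiled after 3 days. YAP1 and TAZ, the latter encoded by WWTR1, are transcriptional co-activators restrained by the Hippo kinases. Biotin-labelled product of total RNA went onto 1 Illumina bead array per sample, which gave a brightness for each of 47231 probes. The line is a single model, the siRNA sequences were not used here, and nothing says whether samples of a group came from separate cultures. All p-values thus rest on the variation among these 6 samples alone, and this variation may be technical.

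In EMT, epithelial cells lose the adherens junctions and apical polarity that hold them in sheets and take up the shape and motility of mesenchymal cells. SNAI, TWIST and ZEB proteins drive it in part by repressing CDH1, the gene of E-cadherin, through E-box sequences, while N-cadherin (CDH2), cadherin-11 (CDH11) and vimentin (VIM) are typical of the mesenchymal state. The factors act on one another as well as on junction genes, and liver cancer lines range from epithelial to mesenchymal forms.

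On the arrays, 13849 to 17017 probes lay above the estimated background, and probes above it on at least 3 of the 6 arrays, 16091 in all standing for 9802 named genes, were tested. Arrays of the same group correlated across these probes at r of 0.990 to 0.995 and arrays of different groups at 0.933 to 0.945. YAP1 mRNA was 5.32-fold lower in the knockdown group and WWTR1 mRNA at least 2.38-fold lower, with the WWTR1 probe below detection on all 3 knockdown arrays. The bright end of the distribution differed between the groups before normalisation: the 95th percentile of intensity averaged 1580 on control and 1117 on knockdown arrays, a ratio of 0.707, while the median averaged 75.8 and 65.8, a ratio of 0.869. Quantile normalisation, used for the reported values, removes this difference. Of 7 hepatocyte markers with a probe, APOA1, APOB, TTR, FGB and CYP3A4 were below detection on every array, while ALB and SERPINA1 were detected. None of 7 endothelial markers was detected, and of the leukocyte markers PTPRC, CD3E and LYZ were not while CD14 and CD68 were. In bulk samples, fewer cells of a type and less RNA per cell cannot be told apart.

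Transcripts of 4 of the 10 genes rose after the knockdown, and none of the tested ones fell. SNAI2 rose 1.77-fold, ZEB2 1.63-fold, TWIST1 1.38-fold and CDH2 1.37-fold. TWIST2 and VIM did not pass the test, and SNAI1, ZEB1, CDH1 and CDH11 were below detection on all 6 arrays. The other 6 genes were therefore tested, each represented by its brightest detected probe, and 4 of these 6 passed an adjusted p of 0.05 in the upward direction, against 27.2% of all 9802 tested genes (54.5% passed in either direction). No tested member passed downward at an adjusted p of 0.05 in limma, against 27.3% of all genes. None did so at an unadjusted p of 0.05 either, a threshold at which the share over all genes was not counted. Over probes, 5 of 8 passed upward, against 26.4% of the 16091 tested probes (51.8% in either direction), and none downward. The knockdown arrays lay wholly above the controls for 5 of the 8 member probes after normalisation and for 2 before it, against 29.8% and 9.84% of all probes; groups were apart in either direction for 59% and 59.6%. The 4 genes that rose were detected on all 6 arrays, so none entered the test through the knockdown group alone. The median log2 change of the 6 tested members was 0.46, and that of all tested genes was 0.0012. With arrays scaled to a common median in place of quantile normalisation, only SNAI2 and ZEB2 of the members passed, and TWIST1 and CDH2 did not. In that fit all 8 member probes had the same SE (0.191). Whether a member passed there thus followed the size of its log2 change alone, not its own spread.

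**Figure D1:**
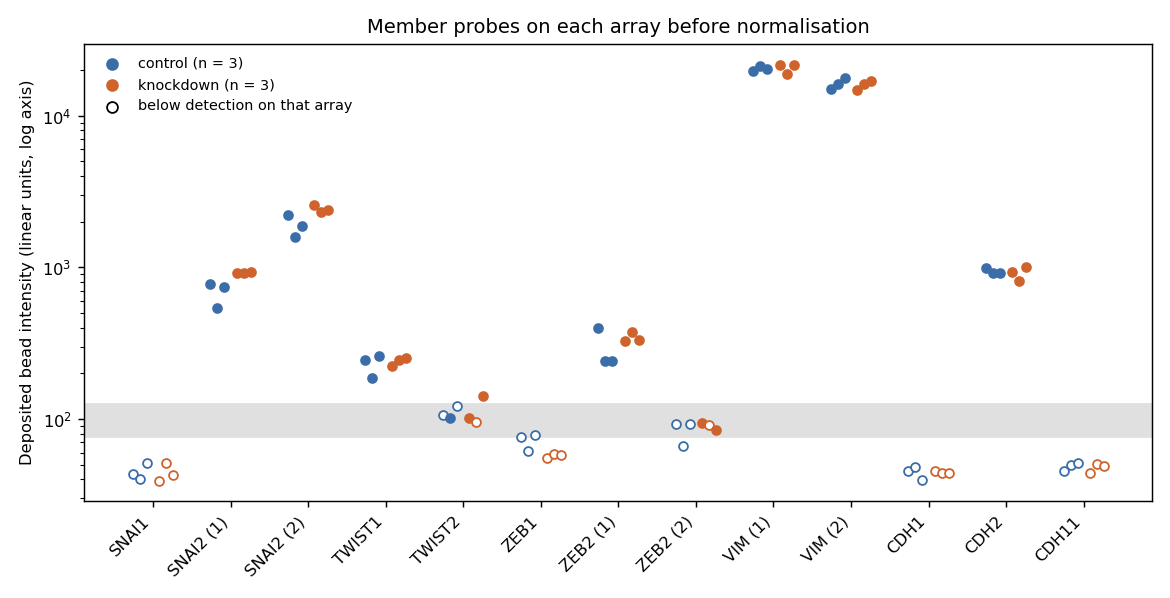
Deposited bead intensity (log axis) of every member probe on the 3 control and 3 knockdown arrays. Numbers in brackets tell probes of a gene apart, open points lie below that array's detection threshold, and the grey band spans the thresholds of the 6 arrays. SNAI1, ZEB1, CDH1 and CDH11 have open points throughout, those of ZEB1 on control replicates 1 and 3 within the band. Both VIM probes lie far above the band, and SNAI2 has knockdown arrays above all controls.

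The Snail family differed between its members in whether it could be measured. SNAI2, or Slug, a zinc finger repressor of CDH1 that also marks neural crest and mesenchymal progenitors, was detected on every array by both of its probes. For the brighter probe (ILMN_2082585), deposited intensities were 2218, 1574 and 1884 on control replicates 1 to 3 and 2558, 2304 and 2395 on knockdown replicates 1 to 3. The lowest knockdown array lay above the highest control array before any normalisation, which held for 10.5% of all tested genes (62.9% did not overlap, in either direction). After normalisation the log2 values were 10.72, 10.55 and 10.58 in the controls and 11.49, 11.49 and 11.34 in the knockdown group, with group averages of 10.61 ± 0.0908 and 11.44 ± 0.0879 (SD, n = 3 each). SNAI2 thus changed on the log2 scale by 0.83 ± 0.101 (SE), with a 95% confidence interval of 1.52-fold to 2.07-fold and a limma adjusted p of 4.83e-05. A rise of this size or more passed the test in 7.8% of all genes. The other SNAI2 probe (ILMN_1655740) had intensities of 777, 535 and 744 in the controls and 916, 920.1 and 926 in the knockdown group. Its log2 change was 0.94 ± 0.107 (SE), or 1.93-fold, with an adjusted p of 2.76e-05, so both probes moved the same way and their intervals overlapped. SNAI2 kept its direction with either probe in all 17 other settings, from 0.37 to 0.88 for the brighter probe and from 0.46 to 1.09 for the other.

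SNAI1, or Snail, the closest relative of SNAI2 and an early inducer of EMT, had a probe that no array raised above background. Its intensities were 43.1, 40.2 and 50.9 in the controls and 39.2, 51.4 and 42.5 in the knockdown group, where the detection thresholds of the arrays ran from 75.6 to 125. The groups overlapped, and between 1.22% and 13.4% of an array's probes were dimmer. A difference in SNAI1 was not measurable with this probe.

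Both TWIST genes encode basic helix-loop-helix factors of mesoderm and neural crest. TWIST1, which also activates SNAI2 and represses CDH1, had intensities of 244, 185 and 262 in the controls and 225, 243 and 252 in the knockdown group. The groups overlapped at this stage, as they did for 5 of the 6 tested members, with SNAI2 the exception. After normalisation the values were 7.47, 7.38 and 7.71 against 7.91, 8.04 and 8.002, averaging 7.52 ± 0.166 and 7.98 ± 0.0709 (SD, n = 3 each), and every knockdown array lay above every control array. The log2 change of TWIST1 was 0.46 ± 0.110 (SE), with an interval of 1.17-fold to 1.63-fold and a limma adjusted p of 0.00451. Under median scaling it was 0.36, which is 0.46 above the median gene, with an adjusted p of 0.131.

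TWIST2, its close relative, also called Dermo1 and known from skin and bone precursors, lay at the edge of detection. Its probe was above the threshold on 1 control and 2 knockdown arrays, with intensities of 107, 101 and 121.5 in the controls and 102, 95.4 and 141 in the knockdown group. Normalised values were 6.20, 6.44 and 6.44 against 6.57, 6.29 and 7.06, so that knockdown replicates 1 and 3 stood above the controls and replicate 2 among them. The log2 change was 0.28 ± 0.1705 (SE), from 0.936-fold to 1.58-fold, and did not pass (adjusted p = 0.194). Single arrays decided its size: without knockdown replicate 2 it was 0.46 (limma adjusted p = 0.026), and without knockdown replicate 3 it was 0.070 (limma adjusted p = 0.709).

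The ZEB genes encode zinc finger and homeodomain proteins that bind paired E-boxes in CDH1 and other epithelial genes. ZEB2, also called SIP1, a SMAD-binding repressor, had a detected probe (ILMN_1688698) with intensities of 399, 243 and 241 in the controls and 325, 374 and 332 in the knockdown group. Control replicate 1 was the brightest array of all, so the groups overlapped before normalisation. Normalised values were 8.21, 7.80 and 7.56 in the controls and 8.49, 8.76 and 8.44 in the knockdown group, averaging 7.86 ± 0.327 and 8.56 ± 0.174 (SD, n = 3 each). The groups no longer overlapped on that scale, which held upward for 30.8% of all tested genes and in either direction for 62.1%. The log2 change in ZEB2 was 0.70 ± 0.158 (SE), with an interval of 1.28-fold to 2.07-fold and a limma adjusted p of 0.00313. The control arrays spread more widely for ZEB2 than for the other members that rose, and the change ran from 0.56 to 0.88 when single arrays were left out, each time past the threshold. The other ZEB2 probe (ILMN_1820767), assigned through an expressed sequence tag, was above the threshold on 2 knockdown arrays and no control array and was not tested. Its intensities were 92.4, 66.4 and 92.4 in the controls and 94.3, 91.5 and 84.2 in the knockdown group, which overlapped.

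ZEB1, the other member of this family and a repressor of many epithelial genes, was below detection on all 6 arrays. Its intensities were 75.8, 61.8 and 78.0 in the controls and 55.4, 58.8 and 58.1 in the knockdown group, all close to the background levels of the arrays, which were 71.5, 59.0 and 75.9 for the controls and 56.8, 64.8 and 58.0 for the knockdown arrays. The knockdown arrays lay below the controls for this probe, but the values on both sides are background and carry no fold.

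**Figure D2:**
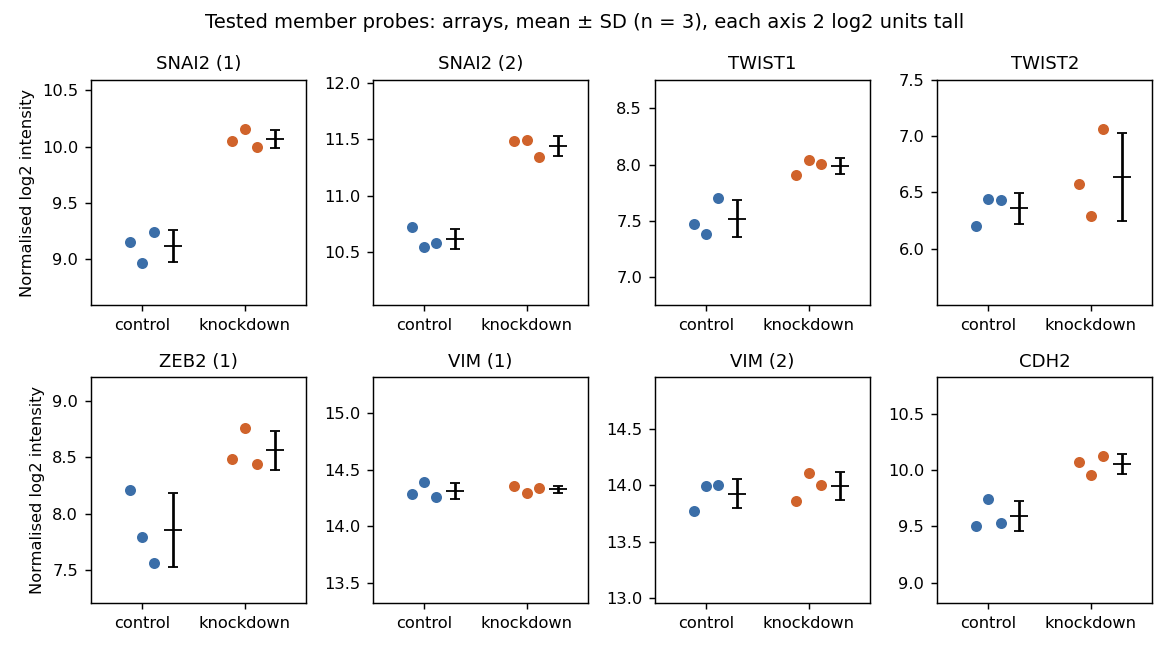
Normalised log2 intensity of the 8 tested member probes on each array, with the mean and SD of each group (n = 3) beside the points. Every axis spans the same number of log2 units. Knockdown arrays lie wholly above controls for both SNAI2 probes, TWIST1, ZEB2 and CDH2, and the groups overlap for TWIST2 and both VIM probes.

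Promoters of 5 of the 10 genes, TWIST2, ZEB1, ZEB2, VIM and CDH2, were matched by symbol in the RefSeq table of GRCh38.p14, which gives 250 bases before and 50 after each start. SNAI1, SNAI2, TWIST1, CDH1 and CDH11 had no entry there. The 12 promoter windows, 7 of them of ZEB1 and 2 of CDH2, were searched on both strands for the E-box bound by SNAI and ZEB proteins, which reads CACCTG on one strand and therefore CAGGTG on the other. They were also searched for the TEAD motif, which reads GGAATG on one strand and therefore CATTCC on the other, and no match of one motif overlapped a match of the other. TEAD factors carry YAP1 and TAZ to DNA. The E-box is found in 20.6% and the TEAD motif in 14% of the 35116 windows of that table. Among the members only ZEB1 held any match, with E-boxes in 2 of its 7 windows and a TEAD motif in 1. The ZEB windows are shown because the paralogs differed in detection and the ZEB2 transcript rose, and the CDH2 window because CDH2 rose as well, each 5′ to 3′ on the strand of the gene, with matches in capitals.
ZEB2, chr2:144520070-144520369, minus strand: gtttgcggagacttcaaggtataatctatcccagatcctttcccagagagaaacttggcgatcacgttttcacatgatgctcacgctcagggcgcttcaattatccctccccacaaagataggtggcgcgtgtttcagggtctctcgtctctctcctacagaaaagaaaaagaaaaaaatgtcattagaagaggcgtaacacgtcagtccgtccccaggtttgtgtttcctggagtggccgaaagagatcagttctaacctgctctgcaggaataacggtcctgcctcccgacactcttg
ZEB1, first window, chr10:31318167-31318466, plus strand: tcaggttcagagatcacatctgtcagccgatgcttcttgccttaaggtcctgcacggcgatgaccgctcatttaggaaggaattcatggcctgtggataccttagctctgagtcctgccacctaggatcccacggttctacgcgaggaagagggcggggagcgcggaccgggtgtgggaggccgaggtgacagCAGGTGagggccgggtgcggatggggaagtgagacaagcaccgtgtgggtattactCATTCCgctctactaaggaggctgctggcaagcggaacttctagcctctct
ZEB1, window with the most E-boxes, chr10:31318966-31319265, plus strand: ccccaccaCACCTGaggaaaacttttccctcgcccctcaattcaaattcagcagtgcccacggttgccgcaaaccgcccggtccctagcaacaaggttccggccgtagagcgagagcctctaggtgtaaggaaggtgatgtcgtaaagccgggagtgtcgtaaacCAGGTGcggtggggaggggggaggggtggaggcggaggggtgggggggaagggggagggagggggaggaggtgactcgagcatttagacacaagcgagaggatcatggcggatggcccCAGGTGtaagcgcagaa
CDH2, chr18:28177081-28177380, minus strand: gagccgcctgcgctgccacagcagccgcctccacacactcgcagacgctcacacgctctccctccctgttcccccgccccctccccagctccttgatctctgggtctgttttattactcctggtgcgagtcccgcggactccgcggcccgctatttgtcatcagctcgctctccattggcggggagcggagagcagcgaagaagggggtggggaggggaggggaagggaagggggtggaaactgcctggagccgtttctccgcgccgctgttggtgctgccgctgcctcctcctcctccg
In the first ZEB1 window the capitals mark an E-box and a TEAD motif, and in the other 3 E-boxes. The ZEB2 and CDH2 windows hold neither set of letters, which says nothing of binding outside these windows.

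Among the cadherins, which join neighbouring cells through calcium-dependent contacts, CDH2 was the member that could be measured. CDH2 encodes N-cadherin of neural, muscle and mesenchymal cells. In the controls the CDH2 probe read 987, 921 and 910.3, and in the knockdown group 929.7, 808 and 1009, a ratio of averages of 0.974. The groups overlapped, with knockdown replicate 2 the dimmest and knockdown replicate 3 the brightest array. After normalisation the values were 9.50, 9.75 and 9.53 against 10.07, 9.95 and 10.13, averaging 9.59 ± 0.135 and 10.05 ± 0.0897 (SD, n = 3 each), and the groups did not overlap. The log2 change in CDH2 was 0.46 ± 0.107 (SE), with an interval of 1.17-fold to 1.62-fold and a limma adjusted p of 0.00402. The rise in CDH2 is thus a rise in its rank among the probes of an array, with the probe brighter than 92.0% to 93.0% of probes in the controls and 93.8% to 94.4% in the knockdown group. It did not pass under median scaling (0.23, which is 0.34 above the median gene, adjusted p = 0.361), with scaling to the 75th percentile (0.27, adjusted p = 0.0875) or when the background level of each array entered the fit (0.32, adjusted p = 0.0554).

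CDH1, which encodes E-cadherin, the defining adhesion protein of epithelia, was below detection on every array of either group. Intensities were 45.04, 48.1 and 39.8 in the controls and 45.2, 43.7 and 43.7 in the knockdown group, where between 0.982% and 9.66% of probes of the same array were dimmer. CDH11, cadherin-11 of osteoblasts and fibroblasts, was also below detection throughout, at 45.01, 49.7 and 50.9 in the controls and 44.3, 50.5 and 48.9 in the knockdown group. The groups overlapped for both genes, and neither allowed a fold to be given.

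Vimentin, the intermediate filament protein of mesenchymal cells, was measured by a pair of probes near the top of every array. Probe ILMN_1782538 had intensities of 19582, 21339 and 20232 in the controls and 21549, 18918 and 21664 in the knockdown group, and at least 99.9% of the probes of each array were dimmer. Probe ILMN_2058251 had intensities of 15060, 16115 and 17595 in the controls and 14723, 16276 and 16859 in the knockdown group. The groups overlapped for both probes. The brightest value of any probe ran from 22852 to 25927 across the arrays, and the table holds no flag for saturation. The log2 changes of VIM were 0.015 ± 0.0948 and 0.066 ± 0.110 (SE), with intervals of 0.875-fold to 1.17-fold and of 0.885-fold to 1.24-fold, and neither passed (limma adjusted p of 0.906 and 0.645). Quantile normalisation gives probes of the same rank the same value on every array, and both VIM probes kept nearly the same rank. Scaled to the 75th percentile, the brighter VIM probe was 0.34 higher and passed (adjusted p = 0.0466) and the other was 0.29 higher and did not (adjusted p = 0.072). Under median scaling they were at 0.29 and 0.25 (adjusted p = 0.226 and 0.322), thus 0.40 and 0.35 above the median gene, which is no less than the 0.34 of CDH2 on that scale. Whether VIM mRNA changed relative to other genes was therefore not settled by these arrays.

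**Figure D3:**
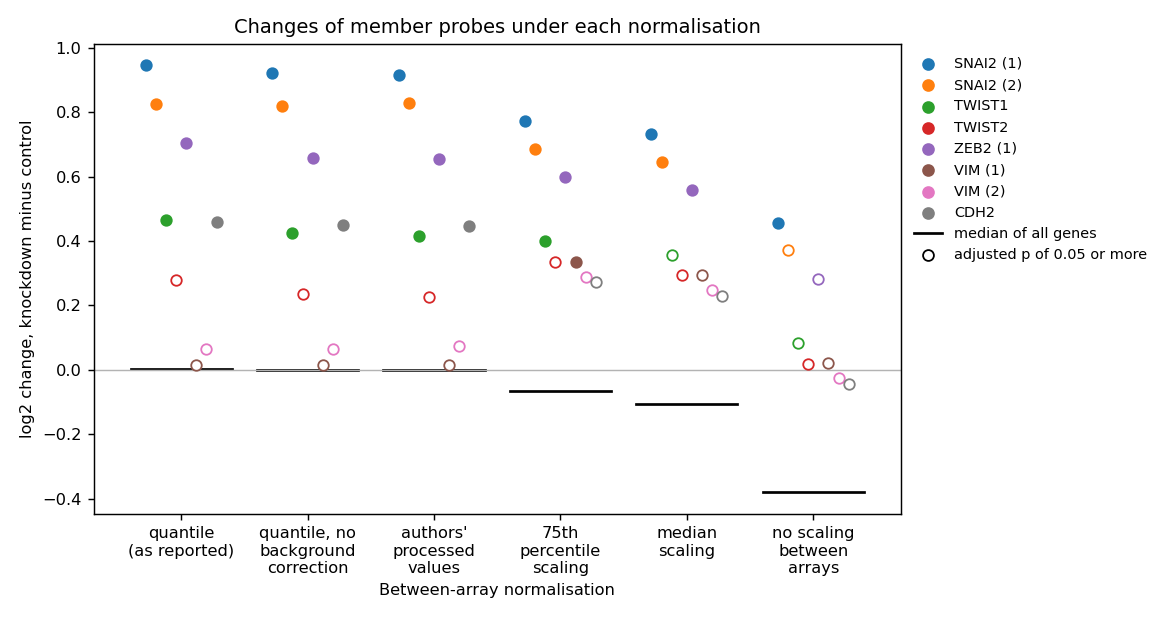
log2 change (knockdown minus control) of the 8 tested member probes under 6 ways of normalising between arrays; filled points passed an adjusted p of 0.05 and black lines give the median change of all genes. SNAI2 and ZEB2 passed under all but the values without scaling, where the other SNAI2 probe alone passed, and the median of all genes moved from 0.0012 to -0.38.

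The median of all genes shifted with the scaling, from 0.0012 after quantile normalisation to -0.065 with 75th percentile scaling, -0.11 with median scaling and -0.38 with no scaling between arrays. Relative to that median, under the last 3 of these the SNAI2 probes stood at 0.75 and 0.84, ZEB2 at 0.66, TWIST1 at 0.46, TWIST2 at 0.40, VIM at 0.35 and 0.40 and CDH2 at 0.34. These 3 differ only by a constant for each array, so values relative to the median gene are the same in all 3 by construction. All 8 tested probes of members lay above the median gene on this scale. SNAI2, ZEB2 and TWIST1 kept the order by size of change that they had after quantile normalisation. CDH2 did not, as it stood lowest of the 8 probes here but above TWIST2 and both VIM probes after quantile normalisation. Without scaling, no member gene passed through its brightest probe (1 at an unadjusted p of 0.05), and CDH2 stood at -0.043.

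The genes with the profile nearest to each member that rose were sought among 9694 others, by the root mean square difference of mean-centred log2 values over the 6 arrays. For SNAI2 they were CBLB, a ubiquitin ligase, at 0.0236 and MTURN at 0.0389, with log2 changes of 0.84 and 0.79. For ZEB2 they were SPRY4, an inhibitor of receptor tyrosine kinase signalling, at 0.0609 and PTPN22, a phosphatase, at 0.0665. For TWIST1 they were TPBG at 0.0419 and SERF2 at 0.0446, and for CDH2 TOR1A at 0.0344 and AMZ2 at 0.0373. With 3 arrays in each of 2 groups, this likeness is a description of these arrays.

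Around these members, 145 other genes of EMT were listed in 8 groups, also with earlier results of these data known. Of the listed genes 67 were tested, 26 rose and 19 fell, with a median log2 change of 0.076. These are 38.8% and 28.4% of the tested listed genes, against 27.2% and 27.3% of all tested genes, so the falls were near the share over all genes. The transcription factors of other families that can act in EMT gave 2 rises and 1 fall among 7 tested genes, near these shares over all genes. SOX4 and SOX9, HMG-box factors, rose 1.81-fold and 1.49-fold, and ETS1 fell 1.61-fold. Factors that hold the epithelial state were mostly below detection, with 2 of 14 listed genes tested. KLF4 rose 1.496-fold by its brighter probe while the other was at -0.16 and did not pass, nor did their mean (adjusted p = 0.0666), and ELF3 fell 1.24-fold, a call lost under median scaling (adjusted p = 0.109), without a detection filter (adjusted p = 0.152) and in 4 of the 6 fits that left out an array. Cofactors and turnover factors of SNAI and ZEB proteins gave 9 falls and 1 rise among 17 tested genes, with a median log2 change of -0.34, where 27.3% of all genes fell and 27.2% rose. Without a detection filter they gave 6 falls and 1 rise among 21, where 2064 of all 20046 genes fell and 2158 (10.8%) rose. EZH2 and SUZ12, subunits of Polycomb repressive complex 2, fell 2.64-fold and 1.63-fold, and AJUBA, a LIM protein that binds SNAI proteins, fell 1.53-fold. FBXL5, part of a ubiquitin ligase that acts on SNAI1 protein, rose 1.43-fold. Neither SOX9 (adjusted p = 0.134) nor FBXL5 (adjusted p = 0.0995) passed under median scaling.

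Of 15 other cadherin genes with a probe, CDH18 alone was tested, and it fell 1.53-fold. Partners of cadherins at the membrane gave 4 rises and 1 fall of 10 tested genes, where 27.2% of all genes rose and 27.3% fell. CTNNB1, or beta-catenin, rose 1.68-fold, and its 3 probes changed by 0.74, 0.69 and 0.57 on the log2 scale. NECTIN3 rose 1.42-fold, JUP, or plakoglobin, 1.41-fold and NUMB 1.34-fold, and PKP4, an armadillo protein, fell 1.79-fold; under median scaling only CTNNB1 of the rises passed. Epithelial junction genes gave 3 rises and 1 fall of 7 tested, and 1 and 1 under median scaling (14.8% of all genes rose there). Without a detection filter they gave 1 rise and 4 falls of 23, where 10.8% of all genes rose and 2064 of 20046 fell. CLDN7, a claudin of epithelial tight junctions, rose 2.22-fold, DSC2 and DSG2, desmosomal cadherins, rose 1.35-fold and 1.27-fold, and CLDN1 fell 1.44-fold. The other DSG2 probe was at 0.10 and did not pass (adjusted p = 0.551). Neither DSC2 (adjusted p = 0.0848) nor DSG2 (adjusted p = 0.710) passed under median scaling. The call of DSG2 was also lost in 4 and that of DSC2 in 2 of the 6 fits that left out an array. When the background level of each array entered the fit, CLDN1 (adjusted p = 0.0747), DSC2, JUP, NECTIN3, ELF3 and PLEC did not pass.

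Among 9 other intermediate filament genes and linkers, 3 rose and 3 fell, where 27.2% of all genes rose and 27.3% fell. KRT19, a keratin of simple epithelia, rose 2.08-fold, SYNM, a filament protein that assembles with vimentin, 1.70-fold and PLEC, a linker of filaments to junctions, 1.41-fold, the last a call lost under median scaling (adjusted p = 0.171). LMNB1 and LMNB2, nuclear lamins, fell 3.67-fold and 2.82-fold, and KRT8 fell 1.32-fold. The call of KRT8 was lost without control replicate 2 (adjusted p = 0.104), knockdown replicate 1 (adjusted p = 0.102) or knockdown replicate 2 (adjusted p = 0.0558), and without a detection filter (adjusted p = 0.109). Mesenchymal marker genes of EMT gave 12 rises and 2 falls among 14 tested of 19 with a probe, with a median log2 change of 0.72, where 27.2% of all genes rose. FN1, LUM and S100A4 were below detection on all control arrays and entered the test through the knockdown arrays, so their rises are at least 1.07-fold, 1.07-fold and 1.12-fold. COL1A1, detected on 1 control array and 3 knockdown arrays, also met the filter only through the knockdown group. COL3A1, a fibrillar collagen, rose 3.29-fold, GNG11, a G protein subunit, 3.27-fold and TNC, the matrix protein tenascin-C, 2.70-fold. TAGLN, an actin-binding protein, fell 1.94-fold and AXL, a receptor tyrosine kinase, 1.62-fold, with -0.29 for its other probe, which did not pass. Among the 9 markers detected on all 6 arrays 8 rose and 1 fell, and under median scaling, where 14.8% of all genes rose, 8 of 14 rose and 2 fell.

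**Figure D4:**
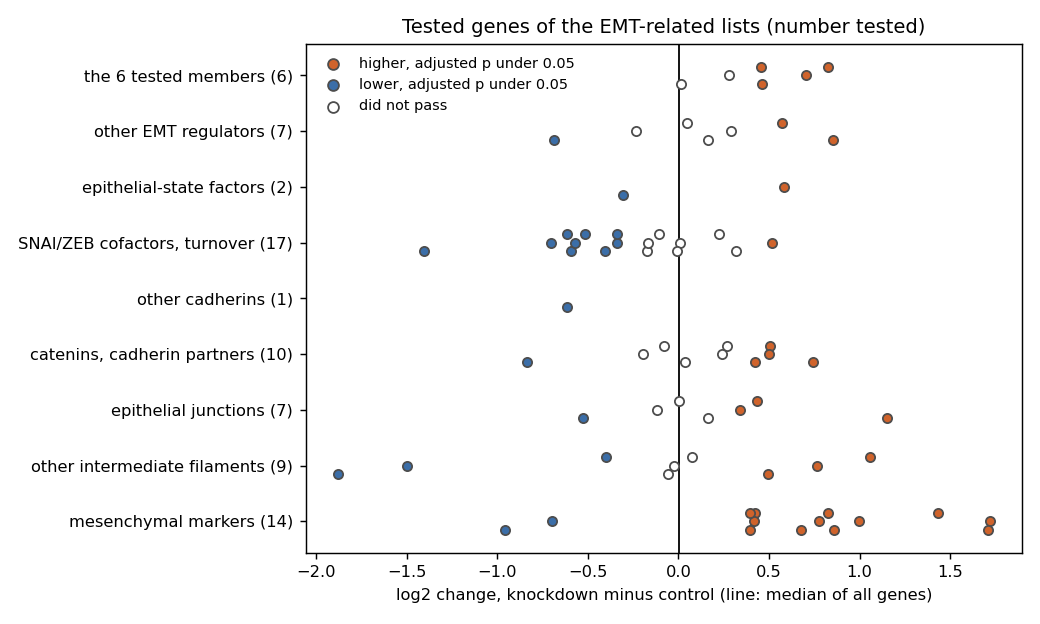
log2 change (knockdown minus control) of every tested gene of the 8 lists and of the 6 tested members, 1 point per gene, with the number tested in brackets and the median of all genes as a line. Mesenchymal markers lie mostly to the right of the line, cofactors and turnover factors of SNAI and ZEB proteins mostly to the left, and the members between 0.015 and 0.83.

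Markers of other cell types were also compared as sums of deposited intensity. The 6 epithelial markers, of which CDH1, CLDN4 and ESRP1 were below detection on every array, summed to between 2463 and 3339.8 in the controls and between 4002 and 4615 in the knockdown group. The 8 fibroblast markers, of which DCN and PDGFRA were below detection on every array, summed to between 1157 and 1421 and between 1524.5 and 1749. The 7 hepatocyte markers summed to between 929 and 1054 and between 1409.6 and 1565. Their 2 detected members moved in opposite directions, SERPINA1 from a mean intensity of 551 to 1102 and ALB from 124 to 81.9, and both passed the test. These 3 sums were higher on every knockdown array than on any control array. Among detected epithelial markers, mean intensity went from 2156 to 3270 for KRT19, 488 to 762 for CLDN7 and 126 to 117 for EPCAM. Among detected fibroblast markers it went from 200 to 464 for COL3A1, 104 to 143 for COL1A1, 73.3 to 95.2 for LUM and 623 to 603 for THY1. After normalisation all of these but EPCAM passed upward. LUM was detected on no control array and COL1A1 on 1, so both met the detection filter only through the knockdown arrays, where they were higher. The 5 leukocyte markers summed to between 3593 and 4308 in the controls and between 2665 and 3437 in the knockdown group, lower on every knockdown array, with CD68 the brightest (a log2 change of -0.048 after normalisation, not past the test) and CD14 higher. The 7 endothelial markers, all below detection, summed to between 377 and 444 and between 348 and 382, which overlapped. All 6 samples are labelled as the SK-Hep1 line, so these sums describe marker transcripts and do not count cells of other types. Any relation of these transcripts to the changes of SNAI2, ZEB2, TWIST1 and CDH2 was not tested.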

How the data were processed

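The intensities deposited by the authors are linear, 1 for each probe of an array. The submitters' processing notes name BeadStudio; whether background was subtracted is not stated there. Of the log2 values that the authors deposited, 99.9% lay within 0.1 of quantile-normalised log2 intensities.

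The intensities were corrected with normexp (saddle-point method, offset 16), quantile-normalised and put on the log2 scale in R 4.3.3 with limma 3.58.1. A probe was detected above the mode of an array's log2 density (bandwidth 0.05) plus the mirrored lower spread at p of 0.05. Groups were compared with lmFit and eBayes on all 6 arrays without covariate, two-sided, adjusted by the Benjamini-Hochberg method over the 16091 detected probes. The fit was tested on data simulated on the normalised scale, with no difference in array brightness between the groups. That test therefore does not bear on the choice of normalisation. Where a group was below detection, folds are bounds against the lowest detected value of each array. Probe names came from the platform annotation, updated through Entrez Gene identifiers (30074 of 30113 singly named probes matched, 17110 unnamed here, 8 with several names). The members and lists were chosen with earlier results of these data known. Listed genes are named where a direction has 5 or fewer calls, otherwise the 3 largest, and FN1, LUM, S100A4 and COL1A1 were added after their values were seen. Figures were drawn with matplotlib 3.10.9. Alternatives tried were other background settings, scalings, the authors' values, detection filters, probe averaging, the array background level, a replicate block and leaving out arrays. Scaling to the 75th percentile and no scaling between arrays were added after the data were seen.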

Additional observations from a re-analysis of the deposited data

How the results depend on the processing

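TWIST2 ran from 0.070 without knockdown replicate 3 to 0.46 without knockdown replicate 2, where alone among these fits it passed and gave 5 member genes. SNAI2, ZEB2, TWIST1 and CDH2 passed upward without background correction, with an offset of 50, with the authors' values, under each other detection filter, with averaged probes and with each array left out in turn. Median scaling left 2 member genes and 3 member probes past the threshold in place of 4 and 5, and 14 listed genes higher in place of 26, with 36.8% of calls over all genes upward in place of 49.9%. No scaling between arrays left 0 member genes (1 at an unadjusted p of 0.05 in limma) and 1 member probe, with CDH2 at -0.043 and the dimmer VIM probe at -0.027. It left 11 listed genes higher and 29 lower in place of 19. Of all 9802 tested genes, 907 (9.25%) were higher and 4986 lower in that setting. The brighter VIM probe was at -0.055 when the background level of each array entered the fit. When single arrays were left out, the VIM probes ran from -0.013 to 0.055 and from -0.0080 to 0.13. The scalings differ by construction in how they treat the brighter upper end of the control arrays, and the cause of that brightness was not tested. The labels do not say that replicate numbers pair the samples, and deviations of same-numbered arrays correlated at -0.17, -0.14 and -0.017; with the replicate block, 4 member genes were higher and 0 lower (0 also at an unadjusted p of 0.05 in limma), and 5 member probes passed. SNAI1, ZEB1, CDH1 and CDH11 were too dim for any change to be measured, and 3 arrays per group limit the precision of the others.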
